A study of Homo sapiens with 2 samples.

Results

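The genes described here are *CD44*, the main cell-surface receptor of hyaluronan, and 7 genes whose products make, cut or modify this polymer: *HAS1*, *HAS2*, *HAS3*, *HYAL1*, *HYAL2*, *HYAL3* and *TNFAIP6*. A feature of the array, a set of probes for 1 transcript cluster, was taken when the platform annotation gave it exactly 1 gene symbol and that symbol was on the list. This gave 7 features of 6 genes, out of 65854 features on the array, of which 23730 carried exactly 1 symbol. *CD44* had 2 features and *HAS2*, *HAS3*, *HYAL2*, *HYAL3* and *TNFAIP6* had 1 each. The annotation listed no feature under *HAS1* or *HYAL1*, and these 2 genes were not analysed here. The list was chosen by a rule that used the measured differences between these 2 arrays, so the differences are given as a description, with no test.

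HCECs, human corneal epithelial cells of a line immortalized with SV40, were transfected by Lipofectamine RNAiMAX with 50 nM miR-184 mimic or with 50 nM NC, a negative control oligonucleotide, and total RNA was profiled at 48 h. Both cultures were grown with 10% serum, insulin and EGF. There was 1 array for miR-184 and 1 for NC. No replicate error could therefore be estimated, no *P*-value is given, and an effect of miR-184 cannot be told apart from any other difference between the 2 cultures. As the RNA came from whole cultures, fewer cells with a transcript and less of it per cell cannot be told apart either.

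Hyaluronan is a long unbranched sugar polymer of the pericellular and extracellular matrix. Hyaluronan synthases in the plasma membrane build it from activated sugars made in the cytosol and extrude it from the cell, hyaluronidases cleave it, and CD44 binds it outside the cell and links it through the cytoplasmic tail to the actin cortex. In stratified epithelia such as that of the cornea, hyaluronan and CD44 surround the basal cells, and both are known for their part in migration and wound closure. The *CD44* transcript is also known for its alternative splicing, in which a standard form and forms with variable exons arise from 1 gene.

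The oligonucleotide that separated the cultures was the mature miR-184, shown here because pairing of its seed with a messenger RNA is how a microRNA selects its targets. The RefSeq sequence lies on the plus strand at chr15:79209840-79209861 (GRCh38.p14), within the gene *MIR184*. In the following line the capitals mark the seed, bases 2 to 8 from the 5′ end.
hsa-miR-184: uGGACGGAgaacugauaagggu
Of 2370 human mature microRNAs in the RefSeq table, 1 had this seed, namely miR-184 itself. Whether the member transcripts hold a match to the seed was not analysed here.

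Both *CD44* features had higher signals in the miR-184 array. The first, TC11000332.hg.1, had a log2 signal of 15.65 with miR-184 and 14.41 with NC, a difference of 1.24 on the log2 scale, or 2.36 times. The second, TC11000333.hg.1, had 11.57 with miR-184 and 9.48 with NC, a difference of 2.10, or 4.28 times. Among all 65854 features ranked by their difference from the highest down, the second feature was at place 35 and the first at place 262. Neither feature reached 19.93, the upper limit of the deposited scale, at which 20 features stood in each array. The 2 identifiers follow each other directly, and the annotation gives neither which exons each one probes nor which of the spliced forms it reads.

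None of the other 5 features came near a difference of that size. *HAS2*, a synthase of the plasma membrane, had a log2 signal of 3.58 with miR-184 and 3.42 with NC, a difference of 0.16. *HAS3*, its paralog, had 4.29 with miR-184 and 4.34 with NC, a difference of -0.05. The mean of both arrays was 3.50 for *HAS2* and 4.31 for *HAS3*, beside a median of 3.64 over all features.

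The hyaluronidase genes behaved likewise. *HYAL2*, which encodes a membrane-anchored hyaluronidase that cuts long chains, had a log2 signal of 4.51 with miR-184 and 4.52 with NC, a difference of -0.01. *HYAL3*, a less well characterised member of the family, had 3.80 with miR-184 and 3.68 with NC, a difference of 0.13. In the RefSeq annotation *HYAL1* and *HYAL2* are direct neighbours, and *HYAL3* is separated from *HYAL1* by *NAA80* among the protein-coding genes. *TNFAIP6* encodes TSG-6, a secreted protein that binds hyaluronan and transfers the heavy chains of inter-alpha-inhibitor to it. Its log2 signal was 3.02 with miR-184 and 3.09 with NC, a difference of -0.08. *TNFAIP6* and *HAS2* were the members whose mean signal lay below the median of all features. Over genes, each by its brightest feature, the median was higher (4.24), and *HYAL3* (3.74) lay below that as well.

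**Figure D1:**
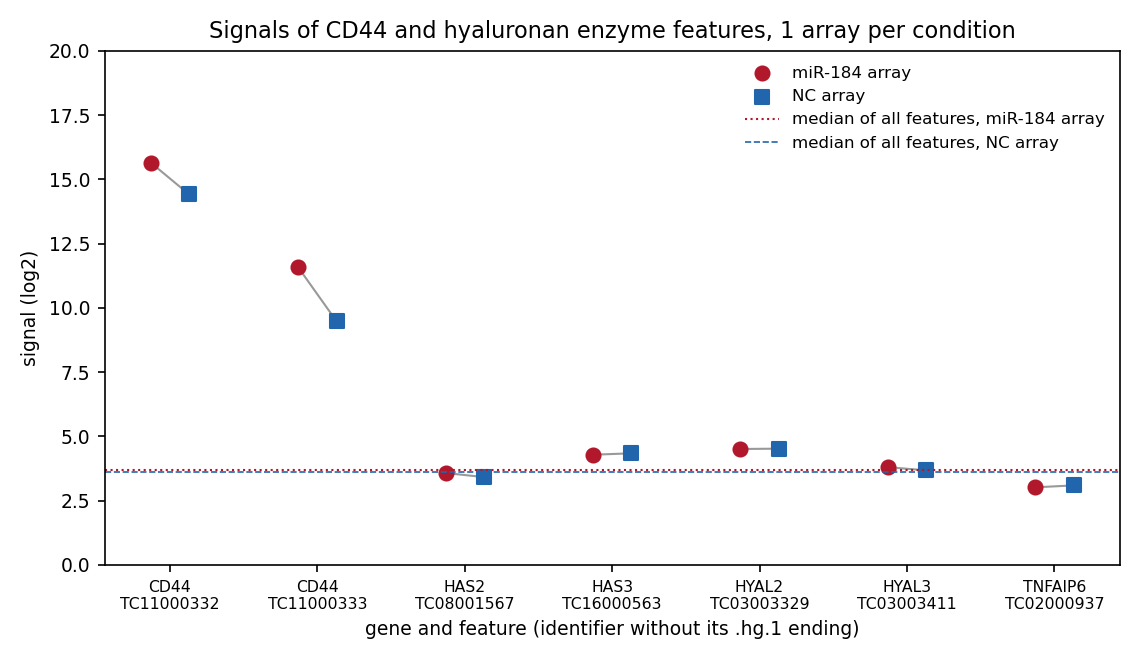
Log2 signal of each of the 7 member features in the miR-184 array (circles) and the NC array (squares), 1 array per condition, with horizontal lines at the median of all features in each array. Both CD44 features are higher in the miR-184 array by 1.24 and 2.10, while the other 5 pairs of points lie within 0.16 of each other and at signals from 3.02 to 4.52.

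The differences of these 5 features ran from -0.08 to 0.16, 2 above and 3 below 0, with a median of -0.01 beside 0.05 over all features. The files give no detection call, so whether these transcripts were above background cannot be said. For scale, features with a mean signal within 0.5 of that of each member had differences with an SD between 0.23 and 0.38, a spread across features and not across replicates. All 5 differences were smaller than the SD of their own band.

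A feature was counted when its signal with miR-184 was at least 1.5 times lower than with NC, the fold change that the study used for lower genes, or at least 1.5 times higher. The study also set a limit on the *P*-value, which was not applied here because each condition has 1 array. By fold change alone 2 of the 7 member features were higher and 0 lower. Over all features 4.08% were higher and 4.12% lower. Since the list was drawn up with these differences in view, nothing is read from its share. At 2 times the same 2 features were counted, and 0.849% of all features were higher by that much.

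The share of features past 1.5 times depended on signal. It was 13.8% among the features at or above the median signal and 2.61% among those below it. *CD44* and its enzymes stood at different places on this scale. Of 1101 features within 0.5 of the mean signal of the second *CD44* feature, 10.7% were higher and 11.2% lower by 1.5 times, and their differences had an SD of 0.58. Of 137 features around the first, brighter *CD44* feature 8.03% were higher and 18.2% lower, also with an SD of 0.58. The median difference of that bright band was -0.18, so the first *CD44* feature was higher in the miR-184 array among features of similar signal that were mostly lower there.

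**Figure D2:**
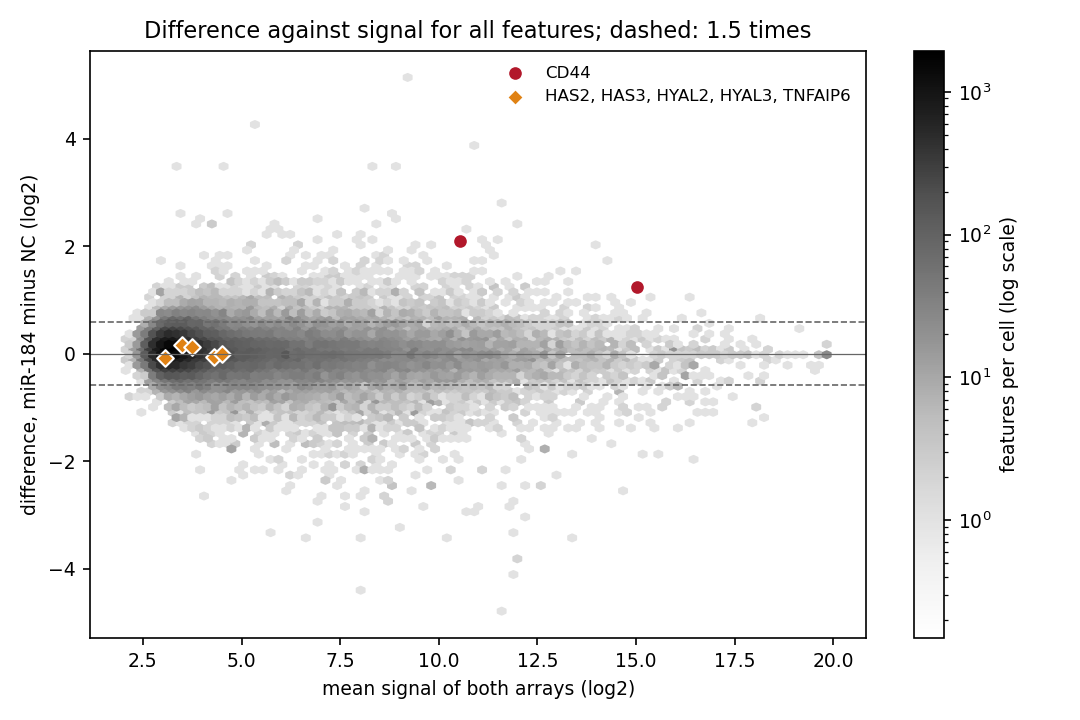
Difference between the arrays (miR-184 minus NC, log2) against the mean signal of both arrays for all 65854 features, shaded by their number on a log scale, with the CD44 features as circles and the other 5 member features as diamonds. Dashed lines mark 1.5 times. The CD44 features lie above the upper line at mean signals of 10.53 and 15.03, and the others lie near 0 between mean signals of 3.06 and 4.52.

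The 2 features of *CD44* pointed the same way but differed in size. Their differences were 0.86 apart on the log2 scale (1.82 times), and their mean was 1.67. To show how far features of 1 gene usually stood apart, all 335 genes with exactly 2 features were examined, a comparison chosen after the values had been seen. The gap between the 2 differences had a median of 0.19 over these genes, and in 11 of them, *CD44* included, it was at least as wide as in *CD44*. With both features at or above the median signal there were 149 genes, with a median gap of 0.21 and 8 gaps of at least that width. With both at a mean signal of at least 8, as in *CD44*, there were 20 genes, with a median gap of 0.10 and 3 gaps of at least that width. Of the 335 pairs 60 had identical values or lay on X and Y or on alternate contigs, and such copies are not separate features like those of *CD44*. Without them the median gap was 0.22, and 11 of 275 genes had a gap of at least that width. The 20 bright genes still include such copies, namely *KANSL1*, *LRRC37A*, *PNRC2*, *RNU6-1*, *SRSF10*, *VAMP7* and *YTHDC1*, with gaps from 0 to 0.11. These low gaps are part of the median of 0.10, which was not computed without them. The 275 genes also still hold pairs whose identifiers name different chromosomes, such as *KRT8*, *UBE2S* and *RNY5*. The gap of *RNY5* was the widest (1.84).

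Both features were at least 1.5 times higher in 4 of the 335 genes and at least 1.5 times lower in 4, or in 4 and 3 without such copies. The 4 with both higher were *CD44*, *MACF1*, *MICAL2* and *BRD10*. *MACF1*, which encodes a linker of actin and microtubules, had differences of 0.78 and 2.52, and *MICAL2*, which encodes an actin-oxidizing enzyme, had 2.63 and 1.17, each with the brighter feature first. In *CD44* and *MACF1* the brighter feature had the smaller difference, and in *MICAL2* the larger. Whether the gap in *CD44* is one between transcript forms or between probe sets was not tested.

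**Figure D3:**
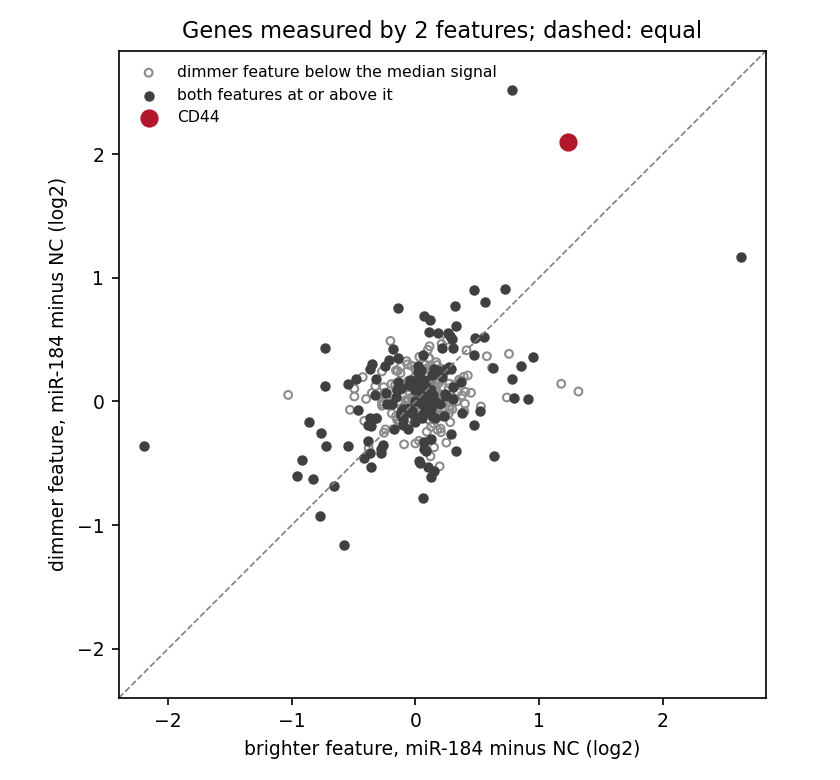
Differences (miR-184 minus NC, log2) of the 2 features of each of 335 genes, the brighter feature on the horizontal axis and the dimmer on the vertical axis. Filled points have both features at or above the median signal, open points have the dimmer one below it, and the dashed line marks equal differences. CD44, the large point at 1.24 and 2.10, lies above the line and away from the mass of genes around 0.

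Genes that work with hyaluronan and CD44 were then followed in 8 lists with 84 genes, 78 of them measured, with 1 value per gene from its feature of highest mean signal. Of the 78 genes 10 were at least 1.5 times higher and 3 lower in the miR-184 array. Over all 22368 genes 3.74% were higher and 4.17% lower, with a median difference of 0.04. The median over the 78 genes was 0.03. The share past 1.5 times rises with signal, to 6.42% higher and 7.37% lower among features at or above the median signal. The lists were also chosen with earlier results of these data known, so nothing is read from their share. With 1 array per condition these counts describe the 2 arrays only.

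Of 6 measured genes that supply or use the activated sugars, 2 were higher and 0 lower, and the median difference was 0.10. *GFPT1*, the first and rate-limiting enzyme of the hexosamine pathway, had a log2 signal of 12.99 with miR-184 and 11.82 with NC, a difference of 1.17 (2.25 times). *UAP1*, which completes UDP-N-acetylglucosamine at the end of the same pathway, had 9.60 with miR-184 and 8.24 with NC, a difference of 1.36 (2.56 times). Between these steps *GNPNAT1*, the acetyltransferase, differed by -0.23. *UGDH*, which makes the UDP-glucuronic acid of the polymer, differed by 0.12, and *UXS1*, which turns that sugar into UDP-xylose, by -0.33. Among the measured genes, the high values were those of the entry and the last step of UDP-N-acetylglucosamine synthesis. *PGM3*, another gene of the steps between, and *GFPT2*, the paralog of *GFPT1*, were not measured, so the pathway is seen only in part. The sugar is also used for N-glycans and other products.

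Of 8 measured genes listed under hyaluronan breakdown outside the members, 1 was higher and 0 lower, with a median of -0.01. The one was *CEMIP2*, described as a cell-surface hyaluronidase, at 10.75 with miR-184 and 10.11 with NC, a difference of 0.64 (1.56 times). *GUSB*, the lysosomal beta-glucuronidase, had 8.02 with miR-184 and 8.59 with NC, a difference of -0.57 just inside the threshold. *HEXA*, which encodes a subunit of beta-hexosaminidase, differed by -0.35. *HGSNAT* (-0.18) and *NAGLU* (-0.06) act on heparan sulfate, so the count and median are not those of hyaluronan breakdown alone. *CEMIP*, which encodes a hyaluronan-degrading protein, and *HYAL4* and *SPAM1* of the hyaluronidase gene family had signals between 3.0 and 3.4 in both arrays.

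Among 7 other receptors 1 was higher and 0 lower, with a median of 0.04. This was *HMMR*, which encodes a hyaluronan-binding protein that also acts at the mitotic spindle, at 11.82 with miR-184 and 11.07 with NC, a difference of 0.75 (1.69 times). *LAYN*, the gene of the membrane receptor layilin, differed by 0.31, and *TLR4*, a receptor of innate immunity, by -0.40. *LYVE1*, *STAB1* and *STAB2*, receptors of lymphatic and sinusoidal endothelium and of macrophages, had signals between 3.0 and 3.4 in both arrays.

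All 17 genes of hyaluronan-binding matrix proteins were measured, and 1 was higher and 0 lower, with a median of 0.08. The one was *HABP4*, at 6.21 with miR-184 and 5.11 with NC, a difference of 1.10 (2.15 times). Its product is an intracellular protein that binds RNA as well as hyaluronan, and not a matrix component. The other 16, among them versican (*VCAN*), aggrecan (*ACAN*), the link proteins, the family of inter-alpha-inhibitor heavy chains, and *PTX3*, had signals from 2.98 to 3.92 with miR-184 and from 2.86 to 3.63 with NC. Their differences ran from -0.05 to 0.34. *HAPLN1*, *HAPLN3* and *ITIH2* had the same value in both arrays, as did 2.91% of all features.

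On the cytoplasmic side of CD44, 1 of 8 linker genes was higher and 0 lower, with a median of 0.04. *MSN*, which encodes moesin, had 12.63 with miR-184 and 11.17 with NC, a difference of 1.46 (2.75 times). Its paralogs *EZR* and *RDX*, which encode ezrin and radixin and bind the same tail, differed by 0.03 and -0.16. *IQGAP1*, a scaffold at the actin cortex, differed by 0.28 and *ANK3*, which encodes an ankyrin, by -0.35. Of the ezrin, radixin and moesin genes, *MSN* was thus the one past the threshold.

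Of 8 measured genes of the proteases that release CD44 from the membrane, 1 was higher and 1 lower, with a median of -0.10. *MMP14*, a membrane-anchored matrix metalloprotease, had 7.35 with miR-184 and 8.33 with NC, a difference of -0.98 (1.97 times lower). *APH1B*, a gamma-secretase subunit, had 5.72 with miR-184 and 4.99 with NC, a difference of 0.73 (1.65 times). *PSEN2* and *APH1A*, which encode subunits of the same complex, differed by 0.25 and -0.29. The sheddase genes *ADAM10* and *ADAM17* differed by -0.15 and -0.06.

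Of 10 measured regulators of the variable exons of *CD44*, 1 was higher and 0 lower, with a median of -0.06. *HNRNPM*, whose product favours skipping of these exons, had 14.21 with miR-184 and 13.30 with NC, a difference of 0.91 (1.88 times). *ESRP1*, the epithelial regulator that favours their inclusion, had 12.33 with miR-184 and 11.91 with NC, a difference of 0.42. *SRRM1* and *KHDRBS1*, which have been linked to inclusion of variable exons, both differed by -0.33. The deposited values are summarised per transcript cluster, so the share of each spliced form of *CD44* was not measured here.

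Of 14 measured genes of other ligands and membrane partners 2 were higher and 2 lower, with a median of -0.05. *SLC7A11*, which encodes a cystine transporter that binds variant forms of CD44, had 8.04 with miR-184 and 6.22 with NC, a difference of 1.82 (3.53 times). *EMP1*, which encodes a small tetraspan membrane protein, had 11.23 with miR-184 and 9.88 with NC, a difference of 1.35 (2.56 times). *LGALS9*, which encodes the lectin galectin-9, was 1.52 times lower (5.78 with miR-184 and 6.38 with NC). *CLDN7*, a claudin found in complexes with CD44, was also 1.52 times lower (10.93 with miR-184 and 11.53 with NC), but it did not pass the threshold after quantile normalization (-0.57) or removal of the trend with signal (-0.55).

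**Figure D4:**
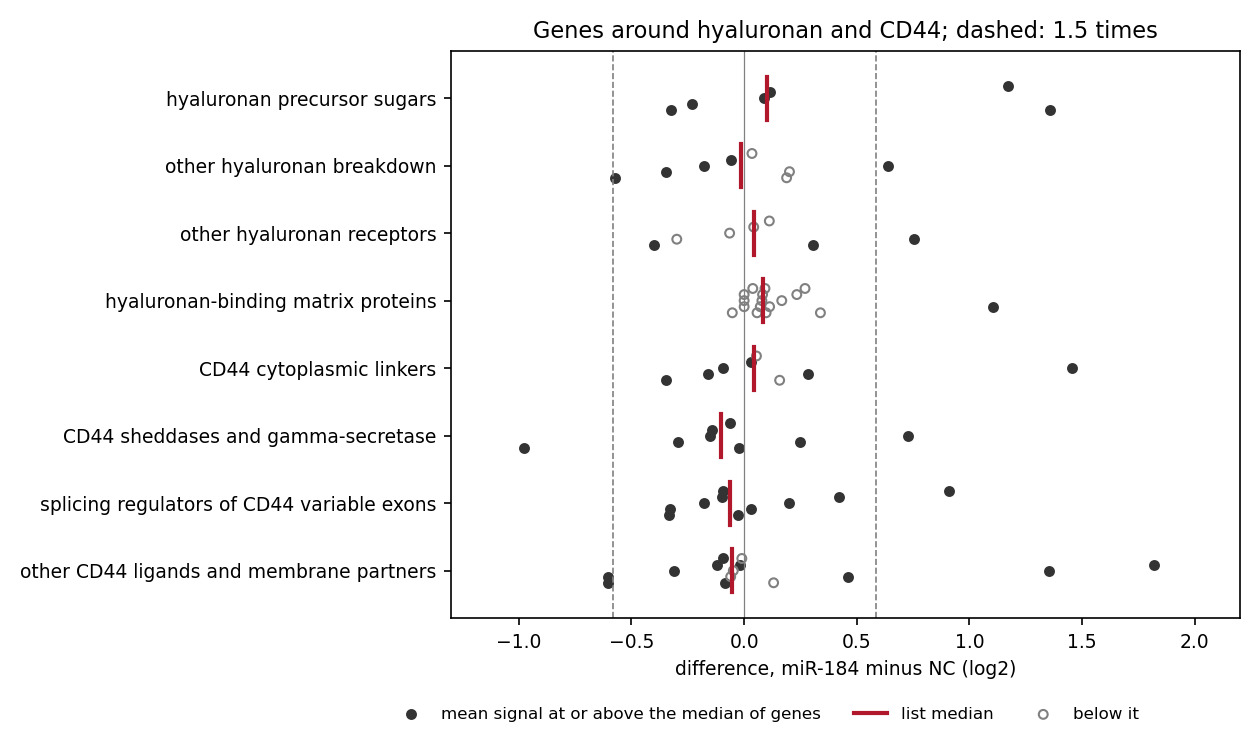
Difference (miR-184 minus NC, log2) of each measured gene in the 8 lists around hyaluronan and CD44. Filled points are genes with a mean signal at or above the median of all genes and open points lie below it, vertical bars are list medians, and dashed lines mark 1.5 times. All list medians lie between -0.10 and 0.10, and each list has 1 or 2 genes beyond the upper line.

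The 2 arrays had medians of 3.68 (miR-184) and 3.61 (NC) over all features and a Pearson correlation of 0.989 across features. Of 12 measured genes on a list of epithelial markers, 5 had a signal at or above the median of all genes (13.02 to 16.83 with miR-184 and 12.75 to 16.54 with NC). They were *KRT5* of stratified epithelia, *KRT8*, *KRT18* and *KRT19*, keratins mainly of simple epithelia, and *CDH1*, found in epithelia generally. Of these *KRT5* (0.88) and *CDH1* (0.75) were higher by 1.5 times with miR-184 and *KRT19* (-0.92) was lower. The other 7 lay below the median (3.35 to 4.12 with miR-184 and 3.29 to 4.21 with NC), among them *KRT3*, *KRT12*, *PAX6* and *ALDH3A1*, which mark the corneal epithelium, and the keratins *KRT13*, *KRT14* and *KRT15* of stratified epithelia. In lists for other cell types, the endothelial gene *CDH5* was lower (6.77 with miR-184 and 8.19 with NC, -1.42). The leukocyte gene *CD14* was higher at low signals (3.78 with miR-184 and 3.19 with NC, 0.59). It did not pass the threshold after centring (0.54), quantile normalization (0.53) or removal of the trend with signal (0.52). No other gene in the lists for other cell types passed 1.5 times, and *MITF* of melanocytes had 6.10 with miR-184 and 6.52 with NC. The part of these marker differences in the *CD44* values was not tested. The feature of *MIR184*, the precursor gene, had 3.58 with miR-184 and 3.47 with NC. It is no check of transfection, because the mimic is not made from the precursor. *LASP1*, *CARM1* and *CDC25A*, the targets that the study followed, were lower by 7.11, 4.63 and 1.86 times in the miR-184 array. The study picked them from genes that were lower in its microarray, so these values are no separate check of transfection. It also examined the 3 genes by luciferase reporter assays and Western blots, which the arrays do not cover.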

How the data were processed

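The authors deposited 1 log2 signal for each feature and array, made from total RNA with the Affymetrix Human Transcriptome Array 2.0 and normalized by Expression Console. Per the labels, labelling was with an Agilent kit, and Agilent Feature Extraction 9.1 stands in the submitters' processing notes, but the identifiers are those of the Affymetrix array. No source used here gives the genome build.

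The values were used without further normalization or filter. Symbols came from the platform annotation (1539 features with several symbols and 40585 not listed were left unnamed), with 303 older symbols updated through RefSeq (GRCh38.p14). For genes outside the members, the brightest feature stood for the gene. A difference is log2 miR-184 minus NC. No test was made, because each condition has 1 array, and the number of arrays limits the precision. The members and lists were chosen with earlier results of these data known. All member features are named, with up to 4 genes per list that had the largest absolute difference and at least the median signal. Other list genes (such as *UGDH*, *EZR* and *ADAM10*) were named after their values were seen. The alternatives were centring, quantile normalization, loess removal of the trend with signal (span 0.3), 2 times as threshold, a signal filter and other rules for genes with several features. The differences as deposited, centring, quantile normalization and loess removal were tested on simulated data, and the other steps were not. Python 3.11.15, numpy 2.4.6, pandas 2.3.3, scipy 1.17.1, statsmodels 0.14.6 and matplotlib 3.10.9 were used.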

Additional observations from a re-analysis of the deposited data

How the results depend on the processing

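The difference of the first *CD44* feature stayed between 1.19 and 1.41 and that of the second between 2.05 and 2.15 under centring, quantile normalization and removal of the trend with signal. The other 5 member features stayed between -0.14 and 0.11 in these 3 settings. The count of higher members was 2 by feature and 1 by gene, both with the feature of highest signal and with the mean of all features, since *CD44* holds both. No member was lower in any setting. The medians of the other receptors (0.04) and of the linkers (0.04) were -0.01 after centring, so neither has a settled direction. After centring *GUSB* was counted as lower (-0.62). *HABP4* (1.10) was the only gene of matrix binding with at least the median signal. At 2 times *CEMIP2*, *HMMR*, *HNRNPM*, *APH1B*, *MMP14*, *LGALS9* and *CLDN7* of the lists around hyaluronan and CD44 were no longer counted. *CDC25A*, a target that the study followed, was not 2 times lower either (1.86 times). No paired analysis was possible because each condition has 1 array.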
